A study of Mus musculus with 16 samples.

Results

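The effect of 5-fluorouracil (5-FU) on the transcriptome of bone marrow lacking functional Nrf2 was measured by comparing 4 libraries from Nrf2-/- (KO) mice given 5-FU with 4 libraries from KO mice not given it. These 8 libraries were all the KO libraries among the 16 of the series, and were chosen by genotype and treatment alone. The 4 KO groups held 2 libraries each: PBS, BMX-001, 5-FU, and BMX-001 with 5-FU. Every KO animal carried the same Nrf2-/- background, which the labels describe as bred from heterozygous males and females and expressing a mutant, inactive form of the gene. 5-FU was dosed at 20 mg/kg, repeated on day 7. BMX-001 was dosed at 0.5 mg/kg, starting 24 h ahead of the first 5-FU dose and repeated every 3 days. Marrow was collected on day 10, and RNA came from a fixed number of cells. Because marrow was isolated in duplicate without a statement that the duplicates were separate animals, p-values measure the spread between these libraries, which may be technical. The labels give an age of 8 to 10 weeks and male sex for the C57BL/6 mice that gave the wild-type (WT) libraries, and neither for the KO mice.

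5-FU is a pyrimidine analogue that blocks thymidylate synthase and is incorporated into RNA and DNA, so it is most toxic to dividing cells such as marrow precursors. Red cells arise in the marrow from erythroblasts, which fill with haemoglobin, condense their nucleus, clear their organelles and expel the nucleus. NRF2, the product of Nfe2l2, is the transcription factor that drives detoxification and redox enzymes, and BMX-001 is a manganese porphyrin with redox activity.

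The KO libraries held 27305707 to 36588168 counts. Nfe2l2 ran from 6.48 to 16.7 CPM (counts scaled to library size) in the 8 KO libraries and from 102.2 to 121.8 CPM in the 8 WT libraries. Marrow genes were plentiful in every KO library, with the neutrophil gene S100a9 at 6297 to 11010 CPM and the beta-globin gene Hbb-bt at 4727 to 8913 CPM. KO BMX-001 replicate 1 stood apart. It had the fewest counts, lay at 112 on the first principal component of all 16 libraries (30.9% of the variance) against -31 to 7.62 for the other KO libraries, and had 12210 CPM of Malat1, a noncoding RNA kept in the nucleus, where the others had 2549 to 4346 CPM. The myeloperoxidase gene Mpo was at 283.5 CPM in it, against 1495 to 2238 CPM. Fits were therefore made over all 8 libraries and over the 7 that remain without this library, and a value is marked where it comes from the 7 alone.

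Far more genes were called lower with 5-FU than were called higher. Over 8 libraries 127 of 18537 genes tested were called lower (0.685%) and 3 were called higher (0.0162%), where a call is an adjusted p under 0.05 from edgeR with BMX-001 as a block. Over 7 libraries 549 of 19102 genes were called lower (2.87%) and 68 higher (0.356%). Of the 130 genes called over 8 libraries, 129 were also called over 7 in the same direction, which is 99.2% of the smaller set and 20.9% of the larger one. The exception was the interferon-stimulated gene Isg15. The median log2 fold change of all genes was 0.01 over 8 libraries and 0.03 over 7, close to 0 beside the excess of lower calls. Separation without regard to calls was less uneven. All 4 libraries with 5-FU lay below all 4 without it for 836 genes (4.51%), and above them for 656 (3.54%). Most called genes changed modestly in size: over 7 libraries the lower ones had a median log2 fold change of -0.44 and a range of -1.53 to -0.24. The higher ones had a median of 0.50 and a range of 0.27 to 6.4. The count over 8 libraries depended on single libraries: it was 617 without KO BMX-001 replicate 1, 56 without KO BMX-001 replicate 2, 1 without KO 5-FU replicate 2, and 0 without any one of the KO PBS replicates, KO 5-FU replicate 1 or either library with both drugs. The count over 7 libraries stayed at 337 to 885 when a further library was left out, with 402 and 392 without KO PBS replicates 1 and 2 and 337 without KO BMX-001 replicate 2.

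Genes of red cell development were prominent among the lower calls. Of 92 genes tested in 6 red cell lists (globins, heme synthesis, iron handling, membrane and skeleton, terminal maturation, transcription factors), 22 were called lower over 8 libraries, 48 were called lower over 7, and in neither case was any called higher. Among all genes tested, 0.685% and 2.87% were called lower in these fits. The median log2 fold change of the 92 was -0.33 over 8 libraries and -0.35 over 7. In whole marrow, fewer erythroid cells and less of these RNAs per erythroid cell cannot be told apart.

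Genes of the late steps of red cell maturation had the lowest median of the 37 gene lists in both fits. In this list of terminal maturation and organelle clearance genes, 16 of 25 were called lower over 8 libraries and 21 of 25 over 7, with medians of -0.62 and -0.61. All 4 libraries with 5-FU lay below all 4 without it for 23 of the 25, against 4.51% of all genes tested. Bcl2l1 encodes BCL-xL, the survival protein of late erythroblasts, and measured 508 and 568 CPM in the PBS libraries, 553 and 549.8 CPM with BMX-001, 216 and 277 CPM with 5-FU and 270.1 and 287 CPM with both drugs. The 4 libraries with 5-FU lay far below the other 4, without overlap, and the library that stood apart was at the level of its group. The log2 fold change of Bcl2l1 was -1.05 ± 0.11 (SE, adjusted p = 0.00812) over 8 libraries and -1.06 ± 0.09 (SE, adjusted p = 2.32e-05) over 7. Xpo7 encodes a nuclear export receptor that erythroblasts use while the nucleus condenses. It measured 1583 and 1709 CPM in the PBS libraries, 1718 and 1565 CPM with BMX-001, 584 and 833 CPM with 5-FU and 712 and 821 CPM with both drugs. Its 5-FU libraries again lay below every library without 5-FU, and the log2 fold change was -1.16 ± 0.13 (SE, adjusted p = 0.0102) over 8 libraries and -1.14 ± 0.12 (SE, adjusted p = 0.000233) over 7. For Trim58, a ubiquitin ligase that acts in enucleation, the values were 77.9 and 85.3 CPM in the PBS libraries, 82.3 and 84.1 CPM with BMX-001, 49.7 and 49.8 CPM with 5-FU and 45.4 and 50.7 CPM with both drugs. The groups were tight and separate, with a log2 fold change of -0.75 ± 0.08 (SE, adjusted p = 0.00812) over 8 libraries and -0.75 ± 0.07 (SE, adjusted p = 2.61e-05) over 7.

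Other genes of the same list, among them ubiquitin and autophagy genes, were also lower. Tmcc2 measured 1311 and 1539 CPM in the PBS libraries, 1454 and 1369 CPM with BMX-001, 596 and 711 CPM with 5-FU and 686 and 774 CPM with both drugs, which gave -1.04 ± 0.11 (SE, adjusted p = 0.00894) over 8 libraries and -1.03 ± 0.10 (SE, adjusted p = 3.36e-05) over 7 on the log2 scale. Rnf10 measured 1079 and 1253 CPM in the PBS libraries, 1103 and 1162 CPM with BMX-001, 550.5 and 596 CPM with 5-FU and 627 and 638 CPM with both drugs, with a log2 fold change of -0.93 ± 0.10 (SE, adjusted p = 0.00839) over 8 libraries and -0.96 ± 0.08 (SE, adjusted p = 2.32e-05) over 7. Neither gene overlapped between libraries with and without 5-FU. Ube2o, the ubiquitin enzyme that removes ribosomes and other proteins from maturing red cells, had log2 fold changes of -0.99 ± 0.12 (SE) over 8 libraries and -1.03 ± 0.10 over 7. Bnip3l (NIX), which marks mitochondria for removal, had -0.63 ± 0.09 and -0.60 ± 0.07 in the same fits, and the autophagy kinase gene Ulk1 had -0.74 ± 0.12 and -0.64 ± 0.08. All 3 were called in both fits. The 4 members not called in either fit were Fbxo7, Hemgn, Epor and Kat2a, with log2 fold changes over 7 libraries of -0.24, -0.22, -0.24 and 0.22. Epor encodes the erythropoietin receptor.

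**Figure D1:**
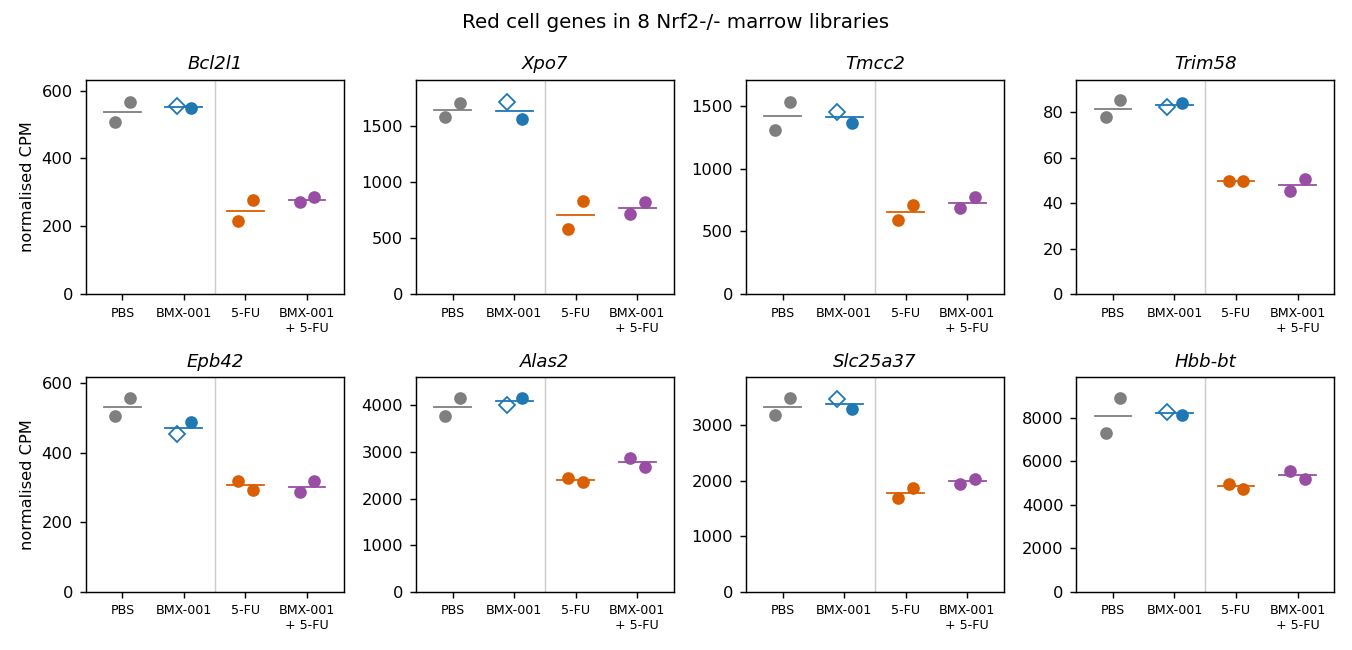
Normalised CPM of 8 red cell genes in the 8 KO libraries, by treatment (points are libraries, horizontal lines are group means of 2, the open diamond is KO BMX-001 replicate 1, axes start at 0). For all 8 genes the 4 libraries with 5-FU, to the right of the vertical line, lie below the 4 without it.

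Among red cell membrane and skeleton genes, 2 of 21 were called lower over 8 libraries and 12 of 21 over 7, with medians of -0.31 and -0.36. Epb42, which encodes protein 4.2, measured 507 and 558 CPM in the PBS libraries, 453 and 489 CPM with BMX-001, 319 and 294 CPM with 5-FU and 286 and 318 CPM with both drugs. No library with 5-FU reached any library without it, and the log2 fold change was -0.72 ± 0.09 (SE, adjusted p = 0.0156) over 8 libraries and -0.75 ± 0.07 (SE, adjusted p = 6.16e-05) over 7. Epb41, which encodes protein 4.1, measured 3765 and 4254 CPM in the PBS libraries, 3968 and 4042 CPM with BMX-001, 1915 and 2043 CPM with 5-FU and 2273 and 2317 CPM with both drugs, a log2 fold change of -0.91 ± 0.11 (SE, adjusted p = 0.0102) over 8 libraries and -0.93 ± 0.09 (SE, adjusted p = 3.93e-05) over 7. Slc4a1 encodes band 3, the anion exchanger of red cells, and measured 7429 and 8260 CPM in the PBS libraries, 5317 and 7359 CPM with BMX-001, 4658 and 4601 CPM with 5-FU and 4434 and 4992 CPM with both drugs. KO BMX-001 replicate 1 was the lowest of the 4 libraries without 5-FU for Slc4a1, although still above all 4 with it. Its log2 fold change was -0.59 ± 0.14 (SE, adjusted p = 0.176) over 8 libraries and -0.71 ± 0.09 (SE, adjusted p = 0.000356) over 7. The ankyrin gene Ank1 had a log2 fold change of -0.49 ± 0.08 (SE) over 7 libraries, and was called there and not over 8. The glucose transporter gene Slc2a1 was at 0.04 over 7 libraries and was not called.

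The adult globins were lower in every library with 5-FU. All 4 globin genes tested separated without overlap, 1 was called over 8 libraries and 3 over 7, and their medians were -0.52 and -0.51 on the log2 scale. Hbb-bt measured 7288 and 8913 CPM in the PBS libraries, 8268 and 8147 CPM with BMX-001, 4954 and 4727 CPM with 5-FU and 5539 and 5192 CPM with both drugs, with a log2 fold change of -0.68 ± 0.12 (SE, adjusted p = 0.0423) over 8 libraries and -0.68 ± 0.10 (SE, adjusted p = 0.000836) over 7. Hba-a1 and Hba-a2, the alpha-globin genes, had log2 fold changes of -0.48 ± 0.10 and -0.54 ± 0.10 (SE) over 7 libraries. Hba-a1 and Hba-a2, like the 2 beta-globin genes, are near-identical copies whose reads the counting may have divided arbitrarily. In heme synthesis, 2 of 13 genes were called lower over 8 libraries and 4 over 7. Alas2 encodes the erythroid enzyme that begins heme synthesis, and measured 3770 and 4171 CPM in the PBS libraries, 4014 and 4164 CPM with BMX-001, 2449 and 2367 CPM with 5-FU and 2879 and 2683 CPM with both drugs. Its 5-FU libraries lay below the rest, the pair with both drugs slightly above the pair with 5-FU alone, and the log2 fold change was -0.64 ± 0.10 (SE, adjusted p = 0.0358) over 8 libraries and -0.66 ± 0.09 (SE, adjusted p = 0.000359) over 7. Fech, which inserts iron into the porphyrin ring, measured 1688 and 1780 CPM in the PBS libraries, 1622 and 1874 CPM with BMX-001, 1068 and 1085 CPM with 5-FU and 1161 and 1206 CPM with both drugs, a log2 fold change of -0.62 ± 0.10 (SE, adjusted p = 0.0317) over 8 libraries and -0.67 ± 0.07 (SE, adjusted p = 0.000114) over 7. Urod, an earlier enzyme of the pathway, and the mitochondrial carrier gene Slc25a39 were called over 7 libraries only, at -0.50 and -0.49. The median of the list was -0.19 over 8 libraries and -0.22 over 7.

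Iron genes were mixed, with 1 of 14 called lower over 8 libraries, 3 over 7, and medians of 0.03 and -0.02. The shares of all genes called lower were 0.685% and 2.87%. Slc25a37 encodes mitoferrin-1, the mitochondrial iron importer of erythroblasts, and measured 3176 and 3482 CPM in the PBS libraries, 3460 and 3295 CPM with BMX-001, 1693 and 1873 CPM with 5-FU and 1944 and 2027 CPM with both drugs. The separation was complete and the log2 fold change was -0.83 ± 0.10 (SE, adjusted p = 0.0134) over 8 libraries and -0.83 ± 0.09 (SE, adjusted p = 7.86e-05) over 7. Ncoa4, which delivers ferritin for degradation, and the transferrin receptor gene Tfrc were called over 7 libraries, at -0.48 ± 0.08 and -0.40 ± 0.08 (SE) on the log2 scale. The iron exporter gene Slc40a1, which marrow macrophages also express, was at 0.07 ± 0.07 over 7 libraries and was not called.

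Promoter sequence is shown for genes of the globin, heme, membrane and maturation lists, with the iron list left out. They are the members described by library above, called in both fits, with 1 listed promoter and a match to a motif of erythroid factors. They were chosen after their values were seen. The sequences are the 250 bases before the annotated start, from RefSeq on GRCm38.p6, an earlier build than the GRCm39 named for the count table. Capitals mark AGATAA or TGATAA, the motif bound by GATA factors, and CCACCC, the CACCC box bound by KLF factors, each on either strand. Alas2 lies at chrX:150547167-150547416, plus strand, Epb42 at chr2:121036878-121037127, minus strand and Hbb-bt at chr7:103813924-103814173, minus strand.
Alas2: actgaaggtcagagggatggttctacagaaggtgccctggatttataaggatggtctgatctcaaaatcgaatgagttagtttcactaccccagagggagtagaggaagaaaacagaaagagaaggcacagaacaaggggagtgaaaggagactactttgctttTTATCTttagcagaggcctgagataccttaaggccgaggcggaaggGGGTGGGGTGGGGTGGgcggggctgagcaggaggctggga
Epb42: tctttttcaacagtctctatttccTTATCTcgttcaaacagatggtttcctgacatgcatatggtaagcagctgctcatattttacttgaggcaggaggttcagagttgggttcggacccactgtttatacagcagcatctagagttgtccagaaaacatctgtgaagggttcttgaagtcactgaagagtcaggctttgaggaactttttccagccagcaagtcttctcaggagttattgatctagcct
Hbb-bt: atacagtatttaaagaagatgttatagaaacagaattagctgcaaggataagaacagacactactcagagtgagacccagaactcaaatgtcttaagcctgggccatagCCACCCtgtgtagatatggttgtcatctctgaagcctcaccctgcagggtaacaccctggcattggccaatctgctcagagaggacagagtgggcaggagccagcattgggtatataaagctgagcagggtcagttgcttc
Alas2 holds a GATA match that begins 86 bases before the start and CCACCC matches on the opposite strand that begin 40, 35 and 30 bases before it, each sharing a base with the next. Epb42 holds 1 GATA match, 226 bases before the start, and Hbb-bt 1 CCACCC match, 141 bases before it. Of 21 members of the globin, heme, membrane and maturation lists called lower in both fits, 15 had a listed promoter. These 15 genes have 24 listed promoters, more per gene than genes at large, so shares are given over promoters. A GATA match was present in 6 of the 24 (25.0%), against 18.8% of the 138 promoters of all genes called lower in both fits, 10.5% of the promoters of all genes tested and 16.6% of 32851 listed promoters. A CCACCC match was present in 12 of 24 (50.0%), against 34.8%, 32.9% and 28.1%. Promoters of 1 gene can overlap, and a match is only a description of these letters.

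The transcription factors that specify red cells had medians of -0.07 over 8 libraries and -0.23 over 7. None of 15 was called over 8 libraries by edgeR, 4 were at an unadjusted p under 0.05, and DESeq2 called 2. Over 7 libraries 5 were called lower: Sox6 at -0.55 ± 0.07 (SE), E2f2 at -0.50 ± 0.08, Klf3 at -0.32 ± 0.08, Nfe2 at -0.31 ± 0.07 and Bach1 at -0.28 ± 0.07. Sox6 promotes late erythroid maturation, and E2f2 is a cell cycle regulator needed for the terminal divisions. Sox6 measured 441 and 421 CPM in the PBS libraries, 346 and 428 CPM with BMX-001, 282 and 295 CPM with 5-FU and 272 and 322 CPM with both drugs. KO BMX-001 replicate 1 was the lowest library without 5-FU for Sox6, but still above the 4 with it. The master regulators Gata1 and Klf1 had log2 fold changes of 0.01 and -0.05 over 7 libraries, with adjusted p of 0.969 and 0.867.

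**Figure D2:**
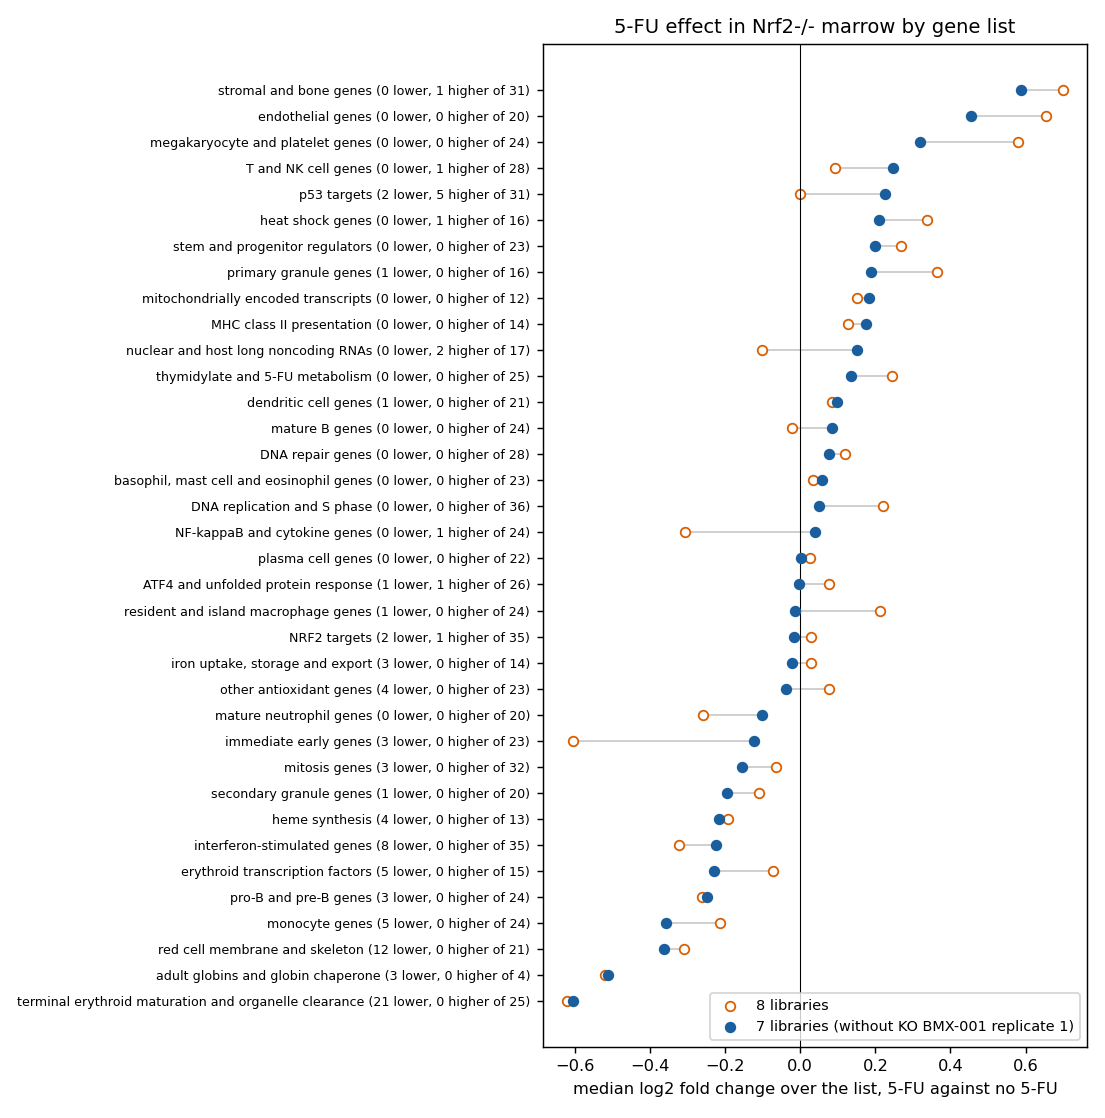
Median log2 fold change of each gene list for 5-FU against no 5-FU in KO marrow, over 8 libraries (open circles) and over 7 (filled circles), with members called over 7 libraries in brackets. The terminal erythroid, globin and membrane lists lie lowest in the 7-library fit, and the immediate early list moves from -0.61 to -0.12 when KO BMX-001 replicate 1 is left out.

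Catalase, the enzyme that breaks down hydrogen peroxide, was lower with 5-FU. Its gene Cat measured 301 and 316 CPM in the PBS libraries, 282 and 303 CPM with BMX-001, 160.5 and 177 CPM with 5-FU and 165 and 171 CPM with both drugs, a complete separation with little spread inside either set, and its log2 fold change was -0.83 ± 0.08 (SE, adjusted p = 0.00812) over 8 libraries and -0.86 ± 0.07 (SE, adjusted p = 1.85e-05) over 7. Over 7 libraries 4 of 23 antioxidant genes that are not classical NRF2 targets were called lower, against 1 over 8. The shares of all genes called lower were 2.87% and 0.685%, and the medians of the list were -0.04 and 0.08. Besides Cat the genes called over 7 were the glutathione peroxidase gene Gpx1 at -0.54 ± 0.11 (SE), the mitochondrial carrier gene Ucp2 at -0.67 ± 0.08 and the mitochondrial thioredoxin reductase gene Txnrd2 at -0.38 ± 0.07. Erythroblasts also express Cat and Gpx1. Of the NRF2 targets, none of 35 genes was called over 8 libraries by edgeR (10 with an unadjusted p under 0.05, while DESeq2 called 3). Over 7 libraries the heme transporter gene Slc48a1 was lower at -0.51 ± 0.07 (SE), Gclm, a subunit of the glutathione-making ligase, was lower at -0.48 ± 0.07, and the sulfiredoxin gene Srxn1 was higher at 0.50 ± 0.12. The Srxn1 call was kept in 0 of 7 fits that left out a further library, and those of Slc48a1 and Gclm in all 7. Nqo1, Hmox1 and Gclc, among the best-known NRF2 targets, were at -0.11, 0.10 and -0.20 over 7 libraries and were not called. The median of the NRF2 target list was 0.03 over 8 libraries and -0.02 over 7.

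Rises were found among targets of p53, the transcription factor of the DNA damage response. Cdkn1a encodes p21, an inhibitor of the cell cycle, and measured 8.96 and 10.98 CPM in the PBS libraries, 18.3 and 8.26 CPM with BMX-001, 33.04 and 24.4 CPM with 5-FU and 24.3 and 20.8 CPM with both drugs. All 4 libraries with 5-FU were above all 4 without it, but KO BMX-001 replicate 1 was higher than the other 3 controls. Its log2 fold change was 1.14 ± 0.27 (SE, adjusted p = 0.167) over 8 libraries and 1.50 ± 0.12 (SE, adjusted p = 2.61e-05) over 7. Eda2r, a receptor of the tumour necrosis factor family, measured 0.394 and 0.241 CPM in the PBS libraries, 0.0335 and 0.318 CPM with BMX-001, 1.81 and 1.50 CPM with 5-FU and 1.39 and 1.44 CPM with both drugs. Levels were low, the groups were separate, and the log2 fold change was 2.63 ± 0.44 (SE, adjusted p = 0.0395) over 8 libraries and 2.29 ± 0.28 (SE, adjusted p = 0.000282) over 7. Phlda3, an inhibitor of AKT signalling, measured 1.06 and 1.54 CPM in the PBS libraries, 0.435 and 0.809 CPM with BMX-001, 3.74 and 2.68 CPM with 5-FU and 2.31 and 1.86 CPM with both drugs, with a log2 fold change of 1.51 ± 0.27 (SE, adjusted p = 0.0545) over 8 libraries and 1.33 ± 0.23 (SE, adjusted p = 0.00416) over 7. Over 7 libraries 5 of 31 p53 targets were called higher, those 3 with Zmat3 at 0.48 ± 0.10 (SE) and Ei24 at 0.28 ± 0.07, and 2 were called lower, Btg2 at -0.34 ± 0.07 and Sesn1 at -0.30 ± 0.07. Among all genes, 0.356% were called higher over 7 libraries and 2.87% lower. Over 8 libraries Eda2r was the only p53 target called, and 15 of the 31 log2 fold changes were positive there, against 19 over 7 with a median of 0.23. For 9 of the 31 the 4 libraries with 5-FU lay above the 4 without it, against 3.54% of all genes. For 2 they lay below, against 4.51%. The summed CPM of the list was 922.8 to 1013 with 5-FU and 996.2 to 1270 without it (996.2 to 1065 without KO BMX-001 replicate 1). Mdm2, Bbc3 and Fas, other well-known p53 targets, were at -0.01, -0.09 and -0.14 over 7 libraries and were not called.

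**Figure D3:**
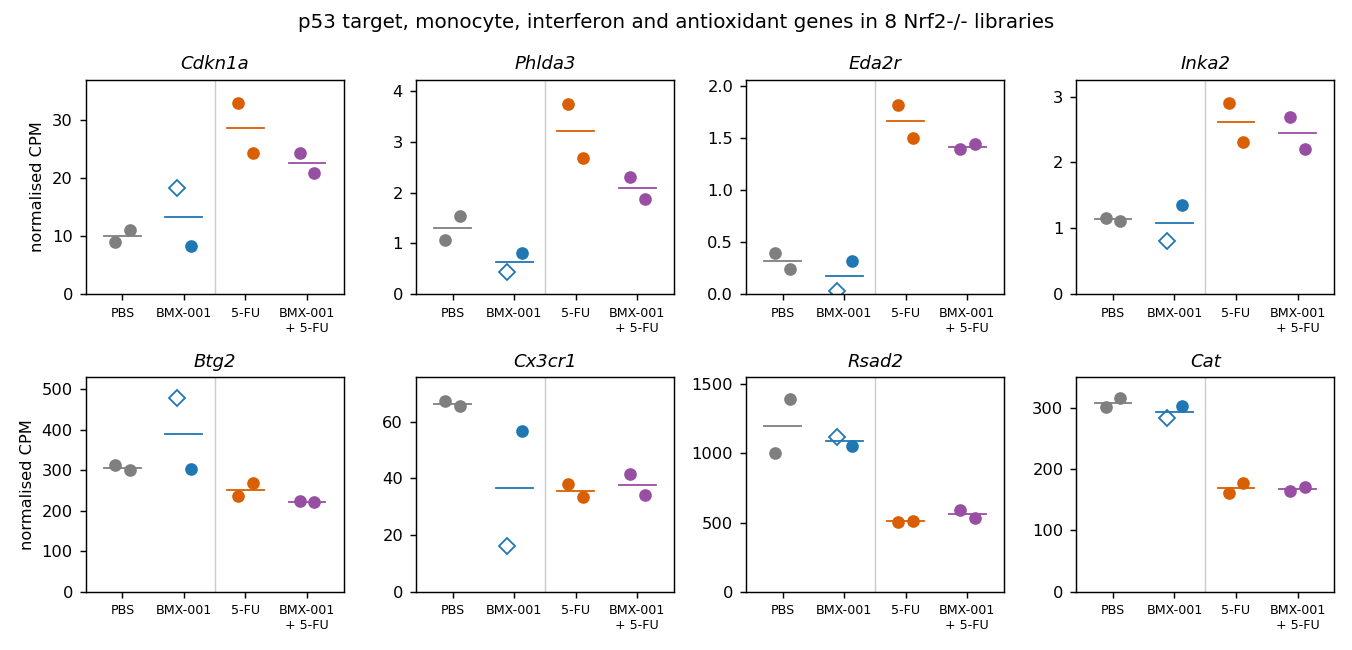
Normalised CPM of p53 target genes (Cdkn1a, Phlda3, Eda2r, Btg2), the kinase inhibitor gene Inka2, the monocyte gene Cx3cr1, the interferon-stimulated gene Rsad2 and catalase (Cat) in the 8 KO libraries, drawn as in the plot of red cell genes. The open diamond, KO BMX-001 replicate 1, lies apart from its partner for Cdkn1a, Btg2 and Cx3cr1 and beside it for Rsad2 and Cat. For Phlda3, Eda2r and Inka2 it lies below its partner.

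Several interferon-stimulated genes were lower with 5-FU. Over 8 libraries 4 of 35 were called lower (0.685% of all genes), over 7 libraries 8 of 35 (2.87%), and the medians were -0.32 and -0.23. Rsad2 encodes the antiviral enzyme viperin, and measured 1000 and 1389 CPM in the PBS libraries, 1120 and 1051 CPM with BMX-001, 503 and 514 CPM with 5-FU and 588 and 534 CPM with both drugs. The 4 libraries with 5-FU lay close together at about the same level, below all controls, of which KO PBS replicate 2 was the highest. Its log2 fold change was -1.09 ± 0.13 (SE, adjusted p = 0.0102) over 8 libraries and -1.10 ± 0.12 (SE, adjusted p = 0.000335) over 7. Ifit1, an antiviral RNA-binding protein, measured 13.9 and 16.7 CPM in the PBS libraries, 13.9 and 13.6 CPM with BMX-001, 9.04 and 6.08 CPM with 5-FU and 8.41 and 7.05 CPM with both drugs, with -0.92 ± 0.15 (SE, adjusted p = 0.0392) over 8 libraries and -0.93 ± 0.14 (SE, adjusted p = 0.00212) over 7 on the log2 scale. Isg15 encodes a ubiquitin-like modifier, and measured 49.6 and 86.3 CPM in the PBS libraries, 50.8 and 51.1 CPM with BMX-001, 31.3 and 24.6 CPM with 5-FU and 28.5 and 24.9 CPM with both drugs. KO PBS replicate 2 was well above the other 3 controls for Isg15, and the gene passed the threshold over 8 libraries (log2 fold change -1.10 ± 0.18, adjusted p = 0.0339) but not over 7 (-1.14 ± 0.25, adjusted p = 0.118). The regulator genes Irf7 and Irf9 were called over 7 libraries at -0.65 ± 0.13 and -0.40 ± 0.07 (SE). Isg20, an exonuclease gene placed in this list and in that of terminal erythroid maturation, had a log2 fold change of -0.73 ± 0.11 (SE, adjusted p = 0.0291) over 8 libraries and -0.75 ± 0.10 (SE, adjusted p = 0.000944) over 7.

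Some monocyte genes were called lower once KO BMX-001 replicate 1 was left out. None of 24 was called over 8 libraries by edgeR (3 with an unadjusted p under 0.05, while DESeq2 called 2), and 5 were called lower over 7, where all 24 had a negative log2 fold change and the median was -0.36. The share of all genes called lower over 7 was 2.87%. Cx3cr1, the fractalkine receptor gene of monocytes, measured 67.4 and 65.3 CPM in the PBS libraries, 16.1 and 56.8 CPM with BMX-001, 38.02 and 33.3 CPM with 5-FU and 41.5 and 34.02 CPM with both drugs. The outlying control was lower than any library with 5-FU, while the other 3 controls were above them all. The log2 fold change of Cx3cr1 was -0.42 ± 0.35 (SE, adjusted p = 0.657) over 8 libraries and -0.77 ± 0.09 (SE, adjusted p = 0.000298) over 7. Csf1r, the receptor for the monocyte growth factor, measured 242 and 273 CPM in the PBS libraries, 85.1 and 197 CPM with BMX-001, 167 and 164 CPM with 5-FU and 170.4 and 140.4 CPM with both drugs, and gave -0.24 ± 0.26 (SE, adjusted p = 0.719) over 8 libraries and -0.52 ± 0.09 (SE, adjusted p = 0.00424) over 7 on the log2 scale. Ccl9, a chemokine gene, measured 84.2 and 70.4 CPM in the PBS libraries, 64.6 and 68.1 CPM with BMX-001, 50.3 and 53.5 CPM with 5-FU and 52.3 and 42.5 CPM with both drugs, without overlap, at -0.53 ± 0.10 (SE, adjusted p = 0.0749) over 8 libraries and -0.55 ± 0.08 (SE, adjusted p = 0.00169) over 7. Klf4 and the galectin-3 gene Lgals3 were also called over 7 libraries. The summed CPM of the list was 5189 to 6786 in the 3 other controls, 2524 in KO BMX-001 replicate 1 and 3934 to 4666 with 5-FU.

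Few granulocyte genes passed the test, and over 7 libraries 3.23% of all genes did. A single call in a list of 16 to 28 genes is near that share. In the primary granule list 1 of 16 genes was called over 7 libraries, Lyz2, the lysozyme gene that monocytes share, at -0.42 ± 0.10 (SE). The Lyz2 call was kept in 1 of 7 fits that left out a further library. The list as a whole went the other way, with 14 of 16 log2 fold changes positive in both fits and medians of 0.36 over 8 libraries and 0.19 over 7. Lyz2 was also the single call among 20 secondary granule genes over 7 libraries, where 19 of 20 log2 fold changes were negative with a median of -0.20, against 16 and -0.11 over 8 (over 7, 10 with an unadjusted p under 0.05, while DESeq2 called 6). None of the 20 mature neutrophil genes was called by edgeR over 7 libraries (4 with an unadjusted p under 0.05, while DESeq2 called 3), and 13 of the 20 were negative there against all 20 over 8, with medians of -0.10 and -0.26. Mpo measured 1590 and 2137 CPM in the PBS libraries, 284 and 1495 CPM with BMX-001, 2238 and 2019 CPM with 5-FU and 1973 and 1700 CPM with both drugs, and its range with 5-FU overlapped that of the controls. Among B cell precursors 3 of 24 genes were called lower over 7 libraries, Myl4 at -1.18 ± 0.20, the chromatin remodeller gene Smarca4 at -0.36 ± 0.08 and Tcf3, a transcription factor of early B cells, at -0.25 ± 0.06. The share of all genes called lower was 2.87%. These calls were kept in 3, 2 and 1 of 7 fits that left out a further library. Over 8 libraries Myl4 alone was called, and the medians were -0.26 over 8 libraries and -0.25 over 7. In the T and NK cell list 20 of 28 log2 fold changes were positive over 8 libraries with a median of 0.09, and 27 of 28 without KO BMX-001 replicate 1 with a median of 0.25, where Tcf7 alone was called, at 0.36 ± 0.09. That call was kept in 1 of 7 fits that left out a further library. In the dendritic cell list the interferon regulator Irf7 was the 1 call over 7 libraries, lower in a list with 16 of 21 positive and a median of 0.10 (15 and 0.09 over 8). Among resident macrophage genes the endocytic receptor gene Lrp1 was the 1 call over 7 libraries, at -0.30 ± 0.08, where 11 of 24 were positive with a median of -0.01, against 19 of 23 and 0.21 over 8. Over 7 libraries edgeR called no gene of mature B cells (5 at an unadjusted p under 0.05), plasma cells (4), basophils, mast cells and eosinophils (0), MHC class II presentation (8), stem and progenitor regulation (5), the mitochondrial genome (2) or the sex-linked set (0), of which DESeq2 called 2, 1, 0, 5, 2, 2 and 0.

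The enzymes that 5-FU acts on and the replication machinery did not pass the threshold. None of 25 genes of thymidylate and 5-FU metabolism was called by edgeR in either fit (8 with an unadjusted p under 0.05 over 7 libraries, while DESeq2 called 1), and none of 36 replication genes (3 with an unadjusted p under 0.05, while DESeq2 called none and limma voom 1). The thymidylate list had medians of 0.25 over 8 libraries and 0.14 over 7. All 36 replication genes were positive over 8 libraries with a median of 0.22, and 28 were positive without KO BMX-001 replicate 1 with a median of 0.05. The ribonucleotide reductase gene Rrm2 measured 588 and 603 CPM in the PBS libraries, 346 and 561 CPM with BMX-001, 709 and 558 CPM with 5-FU and 592 and 605 CPM with both drugs. Apart from KO BMX-001 replicate 1, which was far below the rest, its libraries with and without 5-FU overlapped. The helicase subunit gene Mcm6 was at 0.11 ± 0.08 (SE) over 7 libraries, and its lowest value was again in KO BMX-001 replicate 1, at 171 CPM. Of the 28 DNA repair genes none was called over 7 libraries (4 with an unadjusted p under 0.05, while DESeq2 called 1). Mitosis genes had 20 of 32 negative log2 fold changes over 8 libraries with a median of -0.07, which ran from -0.16 to 0.03 when 1 library was left out. Without KO BMX-001 replicate 1, 30 of 32 were negative with a median of -0.16, and 3 were called: the securin gene Pttg1 at -0.54 ± 0.08, the spindle gene Nusap1 at -0.37 ± 0.08 and the anillin gene Anln at -0.26 ± 0.06. The share of all genes called lower in that fit was 2.87%. Pttg1 was also called over 8 libraries and measured 32.8 and 37.4 CPM in the PBS libraries, 37.6 and 32.9 CPM with BMX-001, 24.7 and 22.3 CPM with 5-FU and 22.8 and 23.8 CPM with both drugs, with no overlap.

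Stress-responsive genes depended on the library that stood apart. Immediate early genes, which rise within minutes of a stimulus, had a median of -0.61 over 8 libraries and -0.12 over 7, and KO BMX-001 replicate 1 held 3243 CPM of their summed level against 1329 to 1639 CPM in the other controls. Jund, a subunit of the AP-1 factor, measured 126 and 145 CPM in the PBS libraries, 212 and 121 CPM with BMX-001, 104 and 102 CPM with 5-FU and 94.1 and 87.97 CPM with both drugs, and passed the threshold over 7 libraries (-0.40 ± 0.07, SE, adjusted p = 0.00348). Socs3, the feedback inhibitor of cytokine signalling, measured 9.45 and 11.3 CPM in the PBS libraries, 33.8 and 8.03 CPM with BMX-001, 14.5 and 12.9 CPM with 5-FU and 11.4 and 11.7 CPM with both drugs. Its sign turned from -0.23 ± 0.43 (SE, not called) over 8 libraries to 0.45 ± 0.11 (SE, adjusted p = 0.0311) over 7. The serine synthesis gene Phgdh was higher at 0.40 ± 0.08 and the endoplasmic reticulum stress gene Herpud1 lower at -0.36 ± 0.07 over 7 libraries. The chaperone-associated gene Cacybp and the noncoding RNA genes Pvt1 and Snhg3 were called higher there, at 0.41 ± 0.09, 0.69 ± 0.12 and 0.48 ± 0.12. Their calls were kept in 3, 6 and 0 of 7 fits that left out a further library.

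**Figure D4:**
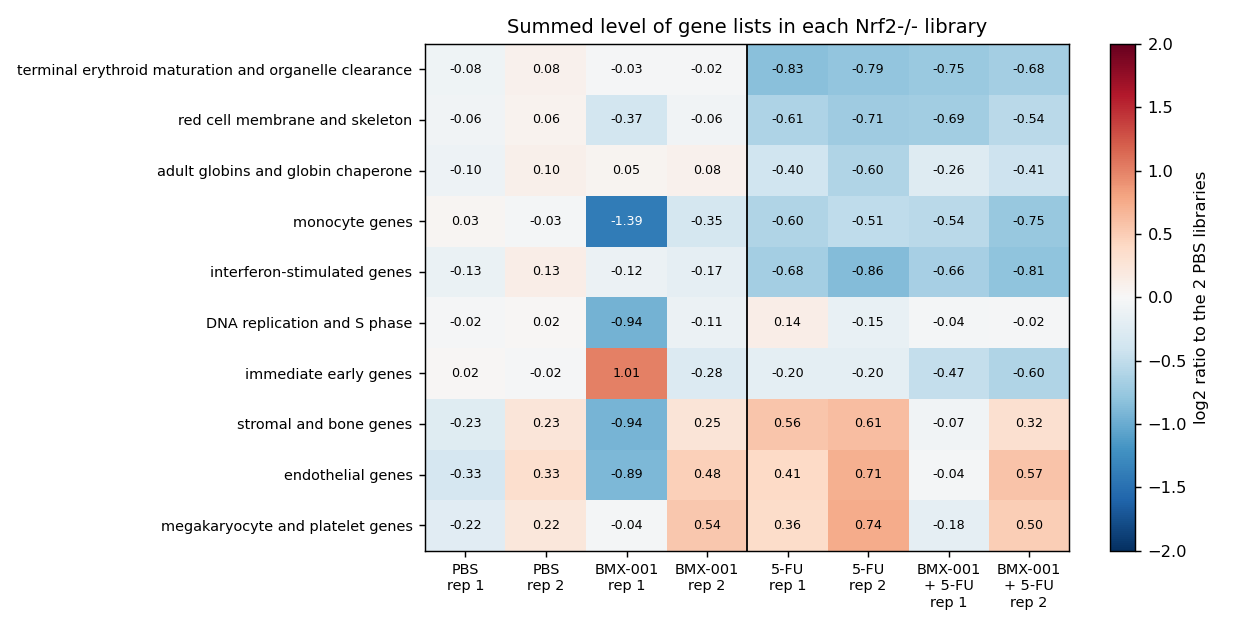
Summed CPM of 10 gene lists in each KO library, as the log2 ratio to the mean log2 value of the PBS libraries, with libraries without 5-FU to the left of the line. Terminal erythroid genes lie between -0.83 and -0.68 in the 4 libraries with 5-FU and between -0.08 and 0.08 in the 4 without it, while monocyte genes are lowest in KO BMX-001 replicate 1, at -1.39.

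Outside these lists, the named lower genes included Specc1, Sowaha, Arhgef37, Aldh3b2 and Ms4a8a. Specc1 measured 738 and 830.1 CPM in the PBS libraries, 782 and 780.2 CPM with BMX-001, 317 and 361 CPM with 5-FU and 349 and 397 CPM with both drugs, with a log2 fold change of -1.14 ± 0.10 (SE, adjusted p = 0.00812) over 8 libraries and -1.15 ± 0.08 (SE, adjusted p = 1.85e-05) over 7. Sowaha measured 77.9 and 75.9 CPM in the PBS libraries, 77.8 and 79.8 CPM with BMX-001, 30.6 and 40.6 CPM with 5-FU and 33.96 and 36.3 CPM with both drugs, at -1.14 ± 0.10 (SE, adjusted p = 0.00812) over 8 libraries and -1.14 ± 0.09 (SE, adjusted p = 1.85e-05) over 7. Both fell to below every control, and Specc1 had the smallest p over 8 libraries. Slfn14, a ribosome-associated endoribonuclease gene, had the smallest p of the 7-library fit, with 270.2 and 272 CPM in the PBS libraries, 233 and 274 CPM with BMX-001, 137 and 143 CPM with 5-FU and 132 and 146 CPM with both drugs and -0.91 ± 0.09 (SE, adjusted p = 0.00812) over 8 libraries and -0.96 ± 0.06 (SE, adjusted p = 1.58e-05) over 7 on the log2 scale. Arhgef37 measured 25.6 and 23.7 CPM in the PBS libraries, 22.6 and 19.6 CPM with BMX-001, 6.71 and 12.4 CPM with 5-FU and 10.7 and 9.32 CPM with both drugs, at -1.22 ± 0.19 (SE, adjusted p = 0.0291) over 8 libraries and -1.20 ± 0.22 (SE, adjusted p = 0.0435) over 7. The myosin light chain gene Myl4, listed with B cell precursors and also expressed elsewhere, measured 16.04 and 13.5 CPM in the PBS libraries, 12.98 and 15.4 CPM with BMX-001, 4.90 and 9.21 CPM with 5-FU and 5.57 and 6.44 CPM with both drugs. For both genes KO 5-FU replicate 1 was lowest, and no library with 5-FU reached a control. The genes called higher over 8 libraries were Eda2r, Arhgef40 and Gm13421. Arhgef40, a guanine nucleotide exchange factor gene, measured 7.60 and 10.2 CPM in the PBS libraries, 7.36 and 8.06 CPM with BMX-001, 18.4 and 13.4 CPM with 5-FU and 14.1 and 17.7 CPM with both drugs, with 0.94 ± 0.16 (SE, adjusted p = 0.0386) over 8 libraries and 0.90 ± 0.15 (SE, adjusted p = 0.00559) over 7. Further rises were ranked among called genes averaging a log2 CPM of 1 or more without overlap between libraries with and without 5-FU. Predicted genes such as Gm13421, immunoglobulin and T cell receptor segments, pseudogenes and genes without a symbol were left out. The largest over 7 libraries after Cdkn1a and Phlda3 were Ccdc141 at 1.19 ± 0.21 (SE) and Inka2, an inhibitor of a p21-activated kinase, at 1.06 ± 0.21. After Arhgef40 came Artn at 0.84 ± 0.20, Zfp948 at 0.76 ± 0.16, Cdk5rap1 at 0.74 ± 0.17, Pcdh7 at 0.73 ± 0.18 and Htr2a at 0.70 ± 0.17. None of these 7 exceeded 7.46 CPM in a control library, and none was called over 8 libraries. In the order given, their calls were kept in 6, 4, 2, 3, 1, 2 and 1 of 7 fits that left out a further library.

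Whether BMX-001 changed the 5-FU effect in KO marrow was tested as an interaction. Over 8 libraries edgeR called 0 genes (326 at an unadjusted p under 0.05) and DESeq2 called 2. Over 7 libraries edgeR called 2, the predicted gene Gm9522 and the immunoglobulin segment Igkv12-44, where BMX-001 without 5-FU was represented by 1 library, assumed to vary like the other groups. In that fit 5-FU alone lowered 336 genes (1.76%), and 5-FU on top of BMX-001 lowered 82 (0.429%). These effects compare separate libraries but share the spread estimated in that fit. Of the 336, 331 had a negative log2 fold change on top of BMX-001, against 45.1% of all genes, and 79 genes of either direction were called in both. 5-FU alone raised 51 genes, of which 30 were positive on top of BMX-001. That was little above the share over all genes, of which 45.1% were negative there. Over 8 libraries neither effect alone gave a call by edgeR (965 and 1582 genes at an unadjusted p under 0.05). Terminal erythroid genes had medians of -0.62 without BMX-001 and -0.59 with it over 7 libraries (-0.65 with it over 8), and Bcl2l1 had log2 fold changes of -1.13 ± 0.12 and -0.97 ± 0.14 (SE) over 7. For Cdkn1a the values were 1.53 ± 0.17 and 1.46 ± 0.21 over 7 libraries, and 0.76 ± 0.35 with BMX-001 over 8.

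Megakaryocyte, stromal and endothelial genes had positive medians for 5-FU, and their values on top of BMX-001 turned on 1 library. Pooled over BMX-001, the medians over 8 and 7 libraries were 0.58 and 0.32 for the megakaryocyte and platelet list, 0.70 and 0.59 for the stromal and bone list, and 0.65 and 0.46 for the endothelial list. When a further library was left out, the medians over 7 ran from 0.0618 to 0.925, 0.245 to 0.979 and 0.0955 to 0.72. For 5-FU against PBS the medians were 0.92, 1.02 and 0.72 in the same order. KO PBS replicate 1 had the lowest summed levels of the 7 libraries, at 1297, 1190 and 228.3 CPM. KO PBS replicate 2 had 1762, 1648 and 360.4 CPM. For both drugs against BMX-001 they were 0.31, 0.33 and 0.60 over 8 libraries, but -0.40, -0.17 and 0.02 without KO BMX-001 replicate 1, where KO BMX-001 replicate 2 was the single library with BMX-001 alone. That library had the highest summed megakaryocyte, stromal and endothelial levels of the 4 controls. No gene of these lists passed the interaction test. Over 7 libraries none of the 24 megakaryocyte or 20 endothelial genes was called for 5-FU by edgeR (1 and 2 at an unadjusted p under 0.05) or DESeq2. The platelet factor gene Pf4 was at 1.32 ± 0.67 and -0.27 ± 0.80 (SE) in these comparisons over 7 libraries. Cxcl12, the stromal chemokine that retains stem cells, measured 88.3 and 334 CPM in the PBS libraries, 150.3 and 406 CPM with BMX-001, 599.6 and 569.9 CPM with 5-FU and 239 and 452 CPM with both drugs. KO PBS replicate 1 held the lowest Cxcl12 of all 8 libraries, and the libraries with and without 5-FU overlapped. The summed stromal list ran from 1190 to 1667 CPM in the controls other than KO BMX-001 replicate 1, was 731.9 CPM in that library, and ran from 1338 to 2140 CPM with 5-FU. Among the 31 stromal genes Lpl, the lipoprotein lipase gene, was the 1 called over 7 libraries, at 0.45 ± 0.09 (SE). A single call of 31 is near the 3.23% of all genes called there. The Lpl call was kept in 3 of 7 fits that left out a further library. The part of the summed stromal level in these medians was not tested.

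**Figure D5:**
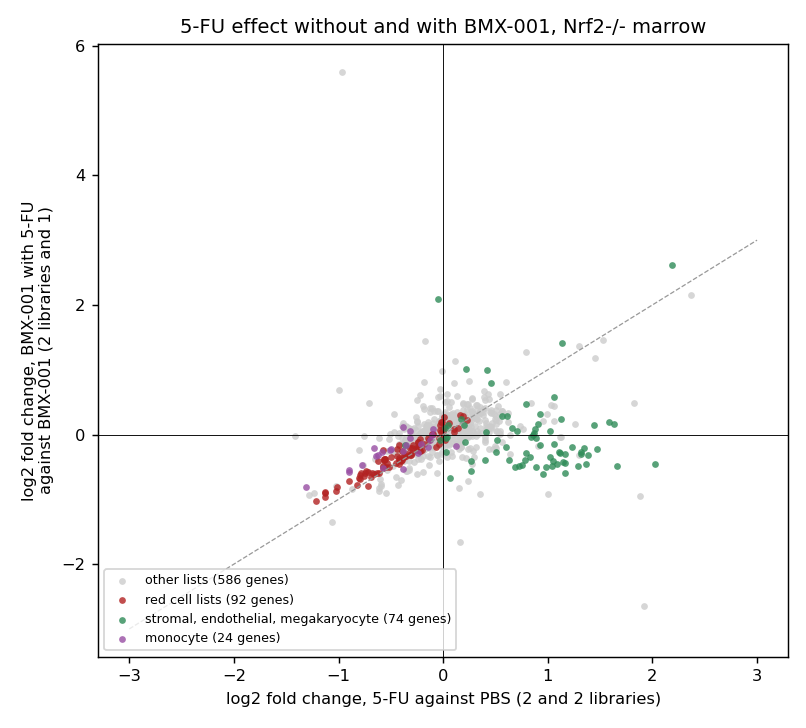
Log2 fold change of each of 776 list genes for 5-FU against PBS (horizontal) and for both drugs against BMX-001 alone (vertical), 7 libraries, with the dashed line marking equal effects. Red cell genes lie along the line in the lower left, while stromal, endothelial and megakaryocyte genes spread to the right near or below 0 on the vertical axis, whose control is KO BMX-001 replicate 2 alone.

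Most genes called in KO marrow had the same direction in WT marrow, where the effect compares WT libraries only. The fit that gave it also held KO libraries, which share in its filter, scaling and spread, so the WT calls depend on them too. The WT 5-FU effect, averaged over BMX-001 in a fit of 15 libraries, was called lower for 271 genes (1.38%) and higher for 111 (0.564%). With KO BMX-001 replicate 1 in the fit, which then shares its spread with all 16 libraries, 9 were called lower and 2 higher. Of the 549 genes lower in KO over 7 libraries, 521 were negative in WT, against 49.1% of all genes, and 165 were called lower there. Among the 68 genes higher in KO, 60 were positive in WT and 11 were called. The 92 red cell genes had a median log2 fold change of -0.09 in WT, where 25 were called lower, beside -0.35 in KO. All 4 globin genes were among those 25, and 13 were terminal maturation genes. Slfn14 measured 225 to 308 CPM without and 185 to 222 CPM with 5-FU in the 4 and 4 WT libraries. Its WT log2 fold change was -0.35 ± 0.07 (SE), and the difference of the KO effect from it was -0.61 ± 0.10 (SE), with an adjusted p of 0.267, the smallest of that test. The difference was -0.42 ± 0.14 for Bcl2l1, -0.44 ± 0.10 for Epb42, -0.16 ± 0.14 for Hbb-bt and 1.02 ± 0.42 for Cdkn1a, with adjusted p of 0.536, 0.293, 0.839 and 0.704. Of the 25 terminal erythroid genes, 23 had a more negative log2 fold change in KO than in WT (against 46.8% of all genes), with a median difference of -0.30, and of the 4 globins 1 did. No gene passed the threshold for a difference between genotypes with edgeR, over 16 libraries (1300 at an unadjusted p under 0.05) or over 15 (1374), and DESeq2 called 39 over 16.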

How the data were processed

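RNA of whole bone marrow was sequenced in 16 libraries, and the deposited table gives whole-number read counts per gene for each, which the authors had not normalised. Per the submitters' processing notes, the mouse build was GRCm39 and the tools were featureCounts, Salmon 1.4.0, Trim Galore 0.6.4, FastQC 0.12.1, R 4.3.0 and DESeq2 1.38.3. The sources used here state neither which tool counted the reads nor the strand setting, so a gene and an antisense partner cannot be told apart.

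The table held 57132 genes, of which 51880 matched a symbol, and genes without one took 2.69% of the counts. Groups came from the labels. Counts were filtered with filterByExpr, scaled by TMM and fitted with edgeR 4.0.16 in R 4.3.3 by quasi-likelihood, with BMX-001 as a block, and p-values were adjusted over all genes tested by the Benjamini-Hochberg method at 0.05. Fold changes of low genes are shrunk slightly by the prior count. The interaction with BMX-001 used the 4 group means, and the interaction with genotype used all libraries. DESeq2 1.42.0 and limma 3.58.1 gave alternatives, as did other scaling, no low-count filter, a replicate term and leaving out each library. The fits were tested on simulated counts.

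The 37 gene lists held 793 symbols, of which 791 matched. The comparison, the lists and the tests were chosen with earlier results of these data known. Named genes were the 10 with the largest change in each direction among called genes averaging a log2 CPM of 1 or more, and up to 4 called members of each list. Other list members named were chosen after their values were seen, and the values of some members are not reported here. Depth was 27305707 to 36588168 counts per KO library.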

Additional observations from a re-analysis of the deposited data

Results flagged for a closer look

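Within the 4 KO libraries with 5-FU and the 4 without, the gap between an extreme library and its nearest neighbour was divided by the range of the group, for totals and named genes. It passed Dixon's 95% critical value for 4 samples in 24 of 258 tests (9.3%). That share cannot be read against a chance rate of 1 in 20, because the genes were chosen from these same data. Some were chosen by the interaction tests, and others because KO BMX-001 replicate 1 stood apart. Of the 24 flags, 15 concerned KO BMX-001 replicate 1. It was the highest control for Fosb (0.961), Btg2 (0.932), Herpud1 (0.931), Pvt1 (0.928), Socs3 (0.873) and Malat1 (0.855). It was the lowest control for total counts (0.938), for Slfn14 (0.916), Fermt3 (0.892), Calr (0.882), Hsp90ab1 (0.901) and Hsp90b1 (0.83), and for the replication genes Rrm1 (0.84), Rrm2 (0.836) and Mcm7 (0.833).

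KO PBS replicate 2 was the highest control for 3 interferon-stimulated genes, Isg15 (0.959), Ifit1 (0.881) and Isg20 (0.856). KO BMX-001 replicate 2 was the highest for Gm9522 (0.989) and Igkv12-44 (0.867). Among libraries with 5-FU, KO 5-FU replicate 1 was the highest for Ighm (0.965) and Nfe2 (0.918), and KO 5-FU replicate 2 for Igkv6-20 (0.84). KO BMX-001 with 5-FU replicate 2 was the lowest for Ighv1-15 (0.831).

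For 2 genes the effect of 5-FU differed with BMX-001 by edgeR's interaction test over 7 libraries, with log2 differences of -7.92 for Gm9522 (adjusted p = 0.0296) and -2.93 for Igkv12-44 (adjusted p = 0.0174). Both rest on KO BMX-001 replicate 2 as the single library with BMX-001 alone.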

How the results depend on the processing

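The 130 calls over 8 libraries became 438 with DESeq2, 640 with limma's sample weights, 364 when the WT libraries shared the fit, 200 for the PBS groups fitted alone, 0 for the BMX-001 groups alone, and 0 to 617 when 1 library was left out. The 617 calls over 7 libraries became 1060 with DESeq2, 1293 without a low-count filter and 337 to 885 when a further library was left out. Counts stayed within 1.5 times for DESeq2's size factors as the scaling (141 and 674), no BMX-001 term (136 and 557), no filter over 8 libraries (186), limma's weights over 7 (845) and the WT libraries in the 7-library fit (687). The interaction with BMX-001 went from 0 calls over 8 libraries to 2 with DESeq2 and to 2 without KO BMX-001 replicate 1, and that with genotype from 0 to 39 with DESeq2. Socs3 turned from -0.23 to 0.45 without KO BMX-001 replicate 1, and ranged from -0.44 to 0.45 over the left-out libraries. The causes were not tested.

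With the replicate number as a replicate block, 44 genes were called over 8 libraries, all among the 130, and 720 over 7, of which 582 were among the 617. Replicate numbers are not stated to pair libraries, and the correlations of deviations between same-numbered libraries ran from -0.281 to 0.255.

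Of the named-gene values under these settings, 1554 kept direction and side of the threshold over 7 libraries, 165 lost the call and 26 gained it. Another 47 changed sign without a call in the main fit or the alternative. Over 8 libraries these were 1713, 215, 175 and 72, and 1 further value changed sign with a call. With 2 libraries a group, 8 libraries leave 5 residual degrees of freedom and 7 leave 4.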
